A study of Homo sapiens with 17 samples.

Results

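The amino acid arm of the integrated stress response was followed through 42 genes of 63677 counted per library. The genes were taken from a fixed list of symbols, and all 42 were found among the Ensembl identifiers of the count tables. They comprise ATF4 and 7 other regulators (ATF3, ATF5, DDIT3, CEBPB, CEBPG, NUPR1, TRIB3), 4 stress effectors (DDIT4, SESN2, CHAC1, STC2), 8 enzymes of amino acid synthesis (ASNS, PSAT1, PHGDH, PSPH, PYCR1, ALDH18A1, GPT2, CTH), 3 mitochondrial enzymes of folate metabolism (SHMT2, MTHFD2, ALDH1L2), 8 amino acid transporter genes (SLC7A11, SLC7A5, SLC3A2, SLC7A1, SLC38A2, SLC1A4, SLC1A5, SLC6A9) and 11 cytosolic aminoacyl-tRNA synthetase genes (AARS1, GARS1, CARS1, WARS1, MARS1, NARS1, SARS1, EPRS1, IARS1, YARS1, TARS1).

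ATF4 is a transcription factor of the leucine zipper family. When kinases such as GCN2 sense uncharged tRNA and phosphorylate the initiation factor eIF2, most translation slows while the ATF4 mRNA is translated more, so ATF4 activity is set largely at the protein level, which RNA sequencing does not measure. ATF4, often paired with a C/EBP protein such as CEBPG, binds response elements near genes that make amino acids, carry them into the cell or load them onto tRNA. ATF5, DDIT3 (CHOP), ATF3 and TRIB3 act downstream, and TRIB3 is known to hold ATF4 activity back.

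The libraries were RNA sequencing of Karpas-422 and WSU-DLCL2, established cell lines grown from diffuse large B cell lymphoma. The groups were Karpas-422 treated with A-485 for 48 h and untreated Karpas-422, WSU-DLCL2 treated with A-485 for 48 h, WSU-DLCL2 clones labelled BCL11A knockout, and untreated WSU-DLCL2, with 3 libraries each. The titles of the untreated libraries name no treatment and do not say whether a DMSO vehicle was added. A-485 inhibits the histone acetyltransferases EP300 and CREBBP; no source used here states its dose. BCL11A is a zinc finger transcription factor of B cells, and each knockout library is a different clone, so clone and genotype differences add to each other within that group. Separate cultures are not named for the replicates of a group, so a p-value reflects only how these libraries vary, part of which could be technical.

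Library depth came in 2 kinds. All 9 Karpas-422 and A-485 libraries were shallow, with 6689320 to 8897051 counts in genes and 43.0% to 55.5% of reads without a unique alignment. The clones and untreated WSU-DLCL2 were deep, with 21233752 to 37286727 counts and 7.73% to 9.24% of such reads. Values below are CPM, read counts relative to the library total with TMM scaling, separately within each kind. The median of the 42 genes over all libraries of a kind was 12.0 CPM in the shallow and 119 CPM in the deep ones, and for the 15 genes with over 10 annotated transcripts it was 7.21 and 132 CPM. Library kind and line cannot be told apart for Karpas-422, nor library kind and A-485 for WSU-DLCL2, so levels of the 2 kinds are given as values without a comparison, and treated WSU-DLCL2 is only set beside Karpas-422. All 8 B cell markers reached a mean of 1 CPM in every group except treated Karpas-422, where 7 did. In that group CD22, EBF1 and MS4A1 averaged 0.97, 2.01 and 4.76 CPM, and in untreated Karpas-422 7.49, 3.45 and 7.10 CPM. The myeloid markers reached 1 CPM in no group and summed to at most 0.74 CPM in any library. Of 5 T cell markers, only CD3D and CD3G reached a mean of 1 CPM, and only in Karpas-422. There the list summed to 461 to 484 CPM with A-485 and 751 to 794 CPM untreated. Of 6 epithelial or fibroblast markers only DCN reached 1 CPM in any group, and EPCAM, KRT18, KRT19, COL1A1 and COL1A2 were at or near 0 in every library. DCN was at 153 to 169 CPM with A-485 and 464 to 477 CPM in untreated Karpas-422 (called lower), and at 21.6 to 65.3 CPM in the clones and 14.1 to 22.8 CPM in untreated WSU-DLCL2 (not called). BCL11A itself stood at 59.0, 68.3 and 53.0 CPM in the clones labelled knockout and at 46.9, 46.2 and 72.2 CPM in untreated WSU-DLCL2, so its RNA does not check the label. A count over the whole gene would not show a small edit.

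Untreated WSU-DLCL2 replicate 3 stood apart from replicates 1 and 2. By its title and source it is untreated, while its treatment entry reads A-485; its 1 count file combines 3 sequencing runs. Counts of replicate 3 differed from those of replicates 1 and 2 by a chi-square per gene of 201 and 212, where replicates 1 and 2 differed from each other by 2.66 and the clones by 20.3 to 40.9. The comparison with untreated WSU-DLCL2 was therefore fitted both with and without replicate 3. Earlier results of these data had already shown the listed genes lower in replicate 3, and the fit without it was set up with this known. Leaving it out lowers the fold changes of such genes in the clones.

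Response elements were searched in RefSeq promoter windows of 300 bases (250 before to 50 after each start, build GRCh38.p14), which 34 of the 42 genes had. The letters searched were TGATGNAA on either strand (read on the other strand as TTNCATCA), the core of the amino acid response element. They occurred in a window of 15 of the 34 genes (44.1%), against 4.46% of the 27305 genes with a window. By window the shares were 27.8% of 54 and 3.62% of 35116. The list was put together around ATF4, so this excess is not a test of ATF4 binding. By role the letters were found for 7 of 10 synthetases, 4 of 7 transporters, 2 of 7 regulators, 1 of 4 effectors, 1 of 5 synthesis enzymes and 0 of 1 folate gene. A match is a string of letters and not a shown binding site. Some genes have several windows, and a match need not lie in all of them. For SLC1A5 it lies in the window at chr19:46784765-46785064 and not in that at chr19:46788545-46788844. The stretches of the 12 such genes that could be tested in Karpas-422 are shown 5′ to 3′ on the strand of the gene, with the match in capitals and 20 bases on each side, or 10 where 20 would pass the start (SLC3A2 ends at the window's edge):
ASNS, chr7:97872449-97872496 (−): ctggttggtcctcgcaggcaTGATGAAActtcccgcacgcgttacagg
SLC1A5, chr19:46784884-46784931 (−): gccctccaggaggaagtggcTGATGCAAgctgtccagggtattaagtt
AARS1, chr16:70289666-70289713 (−): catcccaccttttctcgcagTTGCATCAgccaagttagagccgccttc
GARS1, chr7:30594825-30594872 (+): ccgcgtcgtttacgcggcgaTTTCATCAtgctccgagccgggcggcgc
NARS1, chr18:57621805-57621832 (−): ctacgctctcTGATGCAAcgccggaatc
SLC7A1, chr13:29595664-29595691 (−): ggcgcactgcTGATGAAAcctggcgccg
SLC3A2, chr11:62881726-62881748 (+): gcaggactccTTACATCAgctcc
CARS1, chr11:3057408-3057435 (−): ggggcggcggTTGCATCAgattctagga
IARS1, chr9:92293693-92293720 (−): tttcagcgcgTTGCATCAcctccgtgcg
MARS1, chr12:57488054-57488081 (+): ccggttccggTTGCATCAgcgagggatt
TARS1, chr5:33440957-33440984 (+): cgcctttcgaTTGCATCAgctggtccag
SLC1A4, chr2:64989382-64989409 (+): cggctcccgtTTGCATCAtctccagccg
AARS1, CARS1, IARS1, MARS1, TARS1 and SLC1A4 share the same 8 letters, which NARS1 and SLC1A5 carry as read on the other strand. With A-485 in Karpas-422, the first 7 genes listed were called lower, the next 3 higher and the last 2 neither, as described next.

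In Karpas-422, 6 of 8 transporter genes and 4 of the 6 testable synthesis enzymes were lower with A-485, while the synthetases went both ways. With edgeR's quasi-likelihood test and Benjamini-Hochberg adjustment over all genes, 34 of the 42 genes could be tested, 6 rose and 19 fell at an adjusted p under 0.05. Over all 11846 genes tested, 71.4% were called, 37.6% higher and 33.7% lower, so a call is the common outcome here. The median log2 fold change was −0.56 for the 34 genes and 0.08 for all genes. In RNA of whole cultures, fewer cells with a transcript and less of it per cell cannot be told apart. Treated and untreated libraries did not overlap for 6 genes placed higher and 20 placed lower with A-485, against 38.3% and 36.2% of all genes. ATF3, CEBPG, NUPR1, CHAC1, STC2, PHGDH, PYCR1 and ALDH1L2 were too low to test.

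The calls differed with how highly the genes were counted, as they did over all genes. Among the 13 tested genes with a mean of at least 50 CPM in the 6 libraries, 0 rose and 10 fell (76.9%). Of all genes at that level 19.8% rose and 64.5% fell. Among the 21 below 50 CPM, 6 rose and 9 fell (42.9%), against 23.6% of all genes at that level that fell and 43.5% that rose. The scaling also matters. With library sizes alone the fold change of the median gene moved up by 0.41 on the log2 scale, 12 of the genes were called higher and 16 lower, and the median of the 34 was −0.15 against 0.49 for all genes; over all genes, the calls were then 6465 higher and 2290 lower, against 4459 and 3998 with TMM.

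**Figure D1:**
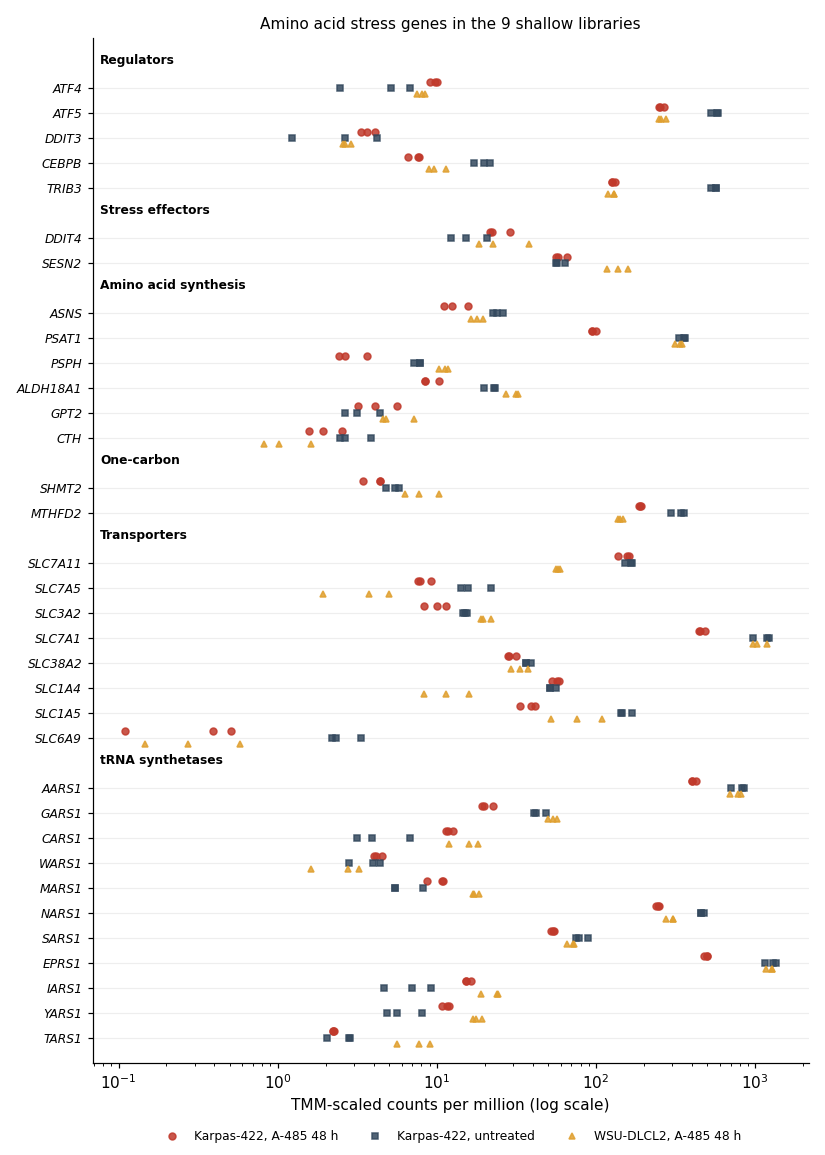
TMM-scaled CPM (log scale) of the 34 genes testable in Karpas-422 in each of the 9 shallow libraries, by role, with A-485-treated Karpas-422 as circles, untreated Karpas-422 as squares and treated WSU-DLCL2 as triangles; values of 0 cannot be drawn. TRIB3, PSAT1, SLC1A5 and EPRS1 lie well to the left with A-485 in Karpas-422, while ATF4, CARS1, IARS1 and YARS1 lie to the right at low levels.

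Among the regulators, ATF4 had 9.94, 9.04 and 9.66 CPM with A-485 and 6.81, 5.14 and 2.45 CPM in untreated Karpas-422. The groups did not overlap, and the log2 fold change was 0.98 ± 0.24 (SE; edgeR adjusted p = 0.00272), but the values rest on 90, 92 and 95 counts with A-485 and 50, 33 and 14 counts untreated. ATF4 has a named pseudogene, and the 3 untreated libraries differed among themselves by more than the treated ones. TRIB3, the pseudokinase that restrains ATF4, had 126, 132 and 126 CPM with A-485 and 531, 569 and 565 CPM untreated (log2 fold change −2.08 ± 0.05, adjusted p = 5.72e-13). ATF5, a related factor that drives mitochondrial stress genes, had 269, 250 and 254 CPM with A-485 and 527, 583 and 573 CPM untreated (−1.09 ± 0.05, adjusted p = 4.73e-10). CEBPB, a C/EBP partner of ATF4, was at 7.62, 7.67 and 6.61 CPM with A-485 and 19.7, 17.0 and 21.5 CPM untreated (−1.37 ± 0.15, adjusted p = 1.3e-06). All 3 were thus lower in every treated library than in any untreated one. DDIT3, the pro-apoptotic factor CHOP, did not pass at 3.65, 3.34 and 4.07 CPM with A-485 and 4.22, 2.65 and 1.23 CPM untreated (0.42 ± 0.31). It shares exonic sequence with MARS1 on the opposite strand; as the strand setting of the counting is not known, reads of this pair cannot be told apart.

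Of the effectors, DDIT4, an inhibitor of mTORC1 also known as REDD1, rose to 28.9, 22.1 and 21.6 CPM with A-485, against 15.3, 12.3 and 20.7 CPM untreated (0.64 ± 0.17, adjusted p = 0.00557). The lowest treated and the highest untreated value nearly touch. SESN2, a leucine sensor upstream of mTORC1, had 65.5, 57.8 and 55.7 CPM with A-485 and 56.2, 56.9 and 63.4 CPM untreated, and was not called (0.06 ± 0.09).

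The enzymes of amino acid synthesis had 4 falls and 0 rises among 6 tested. PSAT1, the transaminase of serine synthesis, had 94.1, 94.6 and 99.4 CPM with A-485 and 331, 359 and 356 CPM untreated (−1.82 ± 0.05, adjusted p = 2.79e-12). PSPH, which makes the last step to serine, had 2.65, 3.64 and 2.44 CPM with A-485 and 7.22, 7.79 and 7.88 CPM untreated (−1.34 ± 0.20, adjusted p = 4.02e-05). ALDH18A1, at the entry to proline synthesis, had 10.3, 8.36 and 8.44 CPM with A-485 and 19.7, 22.7 and 23.1 CPM untreated (−1.24 ± 0.14, adjusted p = 1.97e-06). None of these groups overlapped. ASNS, asparagine synthetase and the best studied ATF4 target, had 11.0, 15.6 and 12.5 CPM with A-485 and 22.5, 25.9 and 23.8 CPM untreated (−0.84 ± 0.14, adjusted p = 9.32e-05). GPT2, a mitochondrial alanine transaminase, and CTH, which makes cysteine from cystathionine, were under 6 CPM in every Karpas-422 library and were not called (0.40 ± 0.27 and −0.52 ± 0.28).

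Of the folate enzymes, MTHFD2, a mitochondrial dehydrogenase of the folate cycle, had 187, 191 and 188 CPM with A-485 and 293, 357 and 339 CPM untreated (−0.77 ± 0.06, adjusted p = 9.22e-08). SHMT2, which splits serine for the same cycle, was at 4.42, 3.44 and 4.37 CPM with A-485 and 4.77, 5.76 and 5.43 CPM untreated; the groups did not overlap, but the test was not passed (−0.35 ± 0.20) and the value turned to 0.06 with library sizes alone.

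Of the 8 transporter genes, 6 fell and 0 rose. SLC1A5, the glutamine carrier ASCT2, had 41.4, 33.2 and 38.7 CPM with A-485 and 145, 144 and 169 CPM untreated (−1.97 ± 0.09, adjusted p = 2.09e-10). SLC7A1, a carrier of arginine and lysine, had 480, 442 and 450 CPM with A-485 and 965, 1176 and 1223 CPM untreated (−1.26 ± 0.07, adjusted p = 8.95e-09). The largest fold change of the list, −2.81 ± 0.42 for the glycine transporter SLC6A9 (adjusted p = 3.9e-05), rests on 1, 4 and 5 counts with A-485 and 17, 14 and 19 counts untreated. Both subunits of the leucine exchanger fell, SLC7A5 (LAT1) at −1.02 ± 0.17 and its heavy chain SLC3A2 at −0.56 ± 0.15 on the log2 scale, and the neutral amino acid carrier SLC38A2 fell as well (−0.30 ± 0.09). Library sizes alone ended the calls of SLC3A2 and SLC38A2, the second at 0.10. SLC7A11, the cystine carrier that imports the building block of glutathione, had 136, 161 and 157 CPM with A-485 and 152, 167 and 165 CPM untreated, and SLC1A4, a carrier of serine and alanine, had 58.7, 56.9 and 53.0 CPM with A-485 and 51.2, 51.3 and 56.2 CPM untreated. Neither was called with TMM (−0.05 ± 0.07 and 0.12 ± 0.08), and both were called higher with library sizes alone.

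The synthetases went both ways, with 4 rises and 5 falls among 11. EPRS1, which loads glutamate and proline, had 479, 495 and 496 CPM with A-485 and 1145, 1349 and 1290 CPM untreated (−1.33 ± 0.06, adjusted p = 1.29e-10). GARS1, for glycine, had 19.1, 22.4 and 19.7 CPM with A-485 and 41.7, 48.8 and 41.0 CPM untreated (−1.06 ± 0.11, adjusted p = 8.21e-07). AARS1, for alanine, had 425, 400 and 400 CPM with A-485 and 701, 848 and 821 CPM untreated (−0.92 ± 0.06, adjusted p = 1.99e-08). All 3 had no overlap between groups. NARS1, for asparagine, had 237, 249 and 246 CPM with A-485 and 456, 459 and 475 CPM untreated (−0.89 ± 0.05, adjusted p = 1.05e-09). SARS1, for serine, had 53.6, 54.1 and 52.1 CPM with A-485 and 74.9, 88.3 and 78.3 CPM untreated (−0.56 ± 0.08, adjusted p = 1.7e-05), a call that was lost with library sizes alone.

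In the other direction, CARS1, for cysteine, had 11.7, 12.7 and 11.5 CPM with A-485 and 6.81, 3.89 and 3.15 CPM untreated (1.37 ± 0.22, adjusted p = 7.68e-05). IARS1, for isoleucine, had 15.1, 15.2 and 16.4 CPM with A-485 and 9.13, 4.67 and 7.00 CPM untreated (1.19 ± 0.19, adjusted p = 7e-05). YARS1, for tyrosine, had 11.6, 12.0 and 10.8 CPM with A-485 and 8.04, 4.83 and 5.60 CPM untreated (0.91 ± 0.19, adjusted p = 0.000563), and MARS1, for methionine, had 10.8, 10.9 and 8.64 CPM with A-485 and 8.17, 5.45 and 5.43 CPM untreated (0.69 ± 0.19, adjusted p = 0.00582). In these 4 genes every treated library was above every untreated one. WARS1 for tryptophan and TARS1 for threonine were not called (0.23 ± 0.22 and −0.16 ± 0.25). Among the tested genes with the same 8 letters on either strand, AARS1, NARS1 and SLC1A5 fell, and CARS1, IARS1 and MARS1 rose. TARS1 and SLC1A4 were not called.

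The 6 genes that rose were all lowly counted in Karpas-422. Their untreated means ran over 4.62 to 16.1 CPM with a median of 6.25 CPM. The 19 that fell had an untreated median of 80.5 CPM in Karpas-422. The risers had a median of 11.5 annotated transcripts (range 3 to 35), the fallers one of 6 (1 to 23) and the uncalled genes one of 5 (1 to 44). Reads that fell outside any gene made up 8.91%, 8.25% and 8.90% with A-485 and 4.54%, 3.61% and 3.61% untreated, and reads without a unique alignment 48.9%, 49.0% and 48.8% with A-485 and 54.5%, 55.5% and 55.5% untreated. Untreated replicate 1, with the highest share outside genes among the untreated, also had the highest untreated ATF4, CARS1, IARS1, YARS1 and MARS1, 5 of the 6 genes that rose; DDIT4 was highest in untreated replicate 3. The part of these read shares in the rises was not tested.

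**Figure D2:**
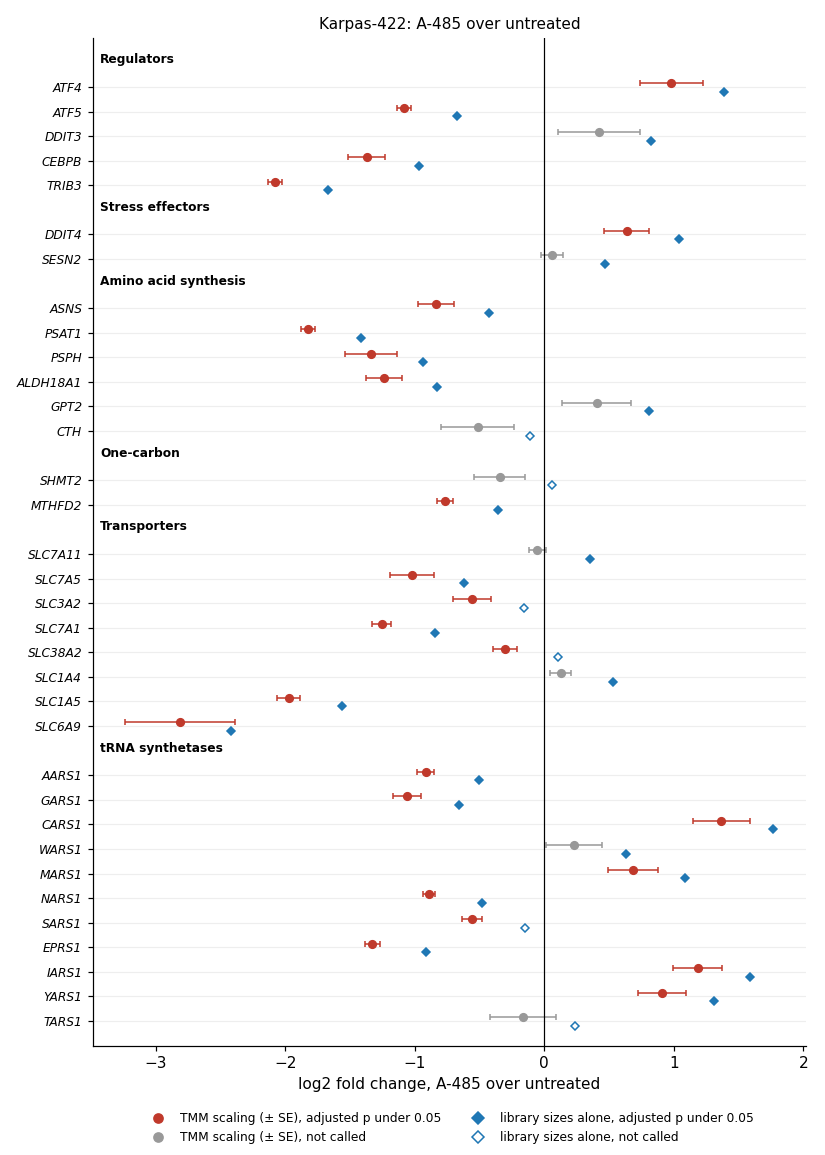
Log2 fold change (x axis, A-485 over untreated Karpas-422) of the 34 tested genes, as circles with SE for TMM scaling (red where the edgeR adjusted p is under 0.05, grey otherwise) and as diamonds for library sizes alone (filled where called). The diamonds lie about 0.41 to the right of the circles, and TRIB3, PSAT1, SLC1A5 and SLC6A9 stay far below 0 with either scaling.

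Related genes outside the 42 were read from lists, with up to 3 examples each by smallest p; the genes given as rising were named after their values were seen. Of 10 tested other cytosolic synthetase genes 7 fell and 2 rose; VARS1 for valine had a log2 fold change of −1.96, FARSB for phenylalanine one of −1.61 and EEF1E1, a scaffold of the synthetase complex, one of −1.33. The 2 that rose were RARS1 for arginine, at 7.18 to 9.96 CPM with A-485 and 0.88 to 1.91 CPM untreated (2.66 ± 0.28), and HARS1 for histidine, at 45.0 to 50.7 CPM with A-485 and 4.90 to 19.3 CPM untreated (2.03 ± 0.36). Of 15 mitochondrial synthetases 9 fell and 3 rose, with MARS2 at −1.91, PARS2 at −1.19 and YARS2 at −1.17; HARS2 (2.91 ± 0.27), SARS2 (1.54 ± 0.38) and CARS2 (0.68 ± 0.19) rose. Of 16 genes of eIF2 signalling 11 fell and 3 rose, among them the eIF2 subunits EIF2S1 (−0.96), EIF2S2 (−0.91) and EIF2S3 (−0.73); EIF2B4 (1.38), EIF2B5 (1.25) and the kinase EIF2AK2 (0.59) rose. Of 15 further genes linked to ATF4, 10 fell and 2 rose (SLC7A6 at 1.04 and RHBDD1 at 0.58); those that fell include the mitochondrial chaperone HSPA9 (−1.71), the tRNA exporter XPOT (−1.42) and the aspartate transaminase GOT1 (−1.06). Of 14 other folate and serine genes 6 fell and 4 rose, with MTHFD1L at −2.00 and PYCR3 at −1.76, and GLUD1 (1.20), TYMS (0.75) and MTHFD2L (0.30) among the rises. These counts stand beside the 33.7% of all genes that fell.

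WSU-DLCL2 treated with A-485 has no untreated partner of its own library kind and is set beside Karpas-422 as values. Of the 27 genes with at least 10 CPM in some shallow library, 9 had all 3 treated WSU-DLCL2 libraries above both Karpas-422 groups, 4 had them below both, and 14 lay between or overlapped. TRIB3 was at 129, 118 and 129 CPM in treated WSU-DLCL2, 126 to 132 CPM in treated and 531 to 569 CPM in untreated Karpas-422. ATF5 was at 254, 274 and 247 CPM in treated WSU-DLCL2, about the values of treated Karpas-422. ATF4, at 8.39, 7.47 and 8.12 CPM in treated WSU-DLCL2, lay between the 2 Karpas-422 groups. PSAT1 instead had 344, 312 and 334 CPM and EPRS1 1269, 1161 and 1275 CPM in treated WSU-DLCL2, close to untreated Karpas-422. PHGDH, the first enzyme of serine synthesis, had 8.24, 8.42 and 6.81 CPM in treated WSU-DLCL2, 0.22 CPM at most in treated and 0.27 CPM at most in untreated Karpas-422. PYCR1, of proline synthesis, had 1.32, 6.79 and 4.49 CPM in treated WSU-DLCL2 and no count in the 6 Karpas-422 libraries, where 0 counts allow up to 0.525 CPM. That limit covers counting error only. PHGDH and PYCR1 have 34 and 17 annotated transcripts. Listed genes with over 10 had a median of 7.21 CPM in the shallow and 132 CPM in the deep libraries. Those with at most 5 had medians of 12.25 and 53.5 CPM, and those with 6 to 10 had 78.7 and 322 CPM. Whether a low count in a shallow library reflects low expression was not tested.

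In the deep libraries 30 of the 42 genes had a mean of at least 50 CPM. Levels are also given per kilobase of exon, merged over all annotated transcripts of a gene. This length was 9217 bases for PHGDH with 34 transcripts and 2514 bases for ATF4 with 3. The annotation used for the counts is not known, so the order of genes is approximate. In the clones the highest means were 125 ± 9.8 CPM per kilobase for GARS1, 116 ± 9.5 for EPRS1 and 116 ± 16 for ATF4, and in untreated WSU-DLCL2 139 ± 15 for ATF4, 124 ± 51 for GARS1 and 110 ± 34 for EPRS1 (SD, n = 3 each). These 3 do not differ beyond their spread. The lowest tested genes were ALDH1L2, ATF3 and SLC6A9. ALDH1L2 was at 0.049 ± 0.037 CPM per kilobase in the clones and 0.15 ± 0.086 untreated, ATF3 at 0.13 ± 0.17 in the clones and 0.71 ± 0.56 untreated, and SLC6A9 at 0.13 ± 0.13 in the clones and 0.49 ± 0.14 untreated. NUPR1, a small stress-induced chromatin protein, had no count in any of the 15 libraries, which allows at most 0.0814 CPM in the deepest. STC2, a secreted glycoprotein, had 3 counts in all 15.

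Against all 3 untreated libraries, the clones labelled BCL11A knockout showed 0 called genes among the 40 tested, and edgeR called 0.0% of all 16152 genes. At an unadjusted p under 0.05 edgeR had 1117 genes; DESeq2 called 315 and limma-voom 2. DESeq2's 315 included ASNS and DDIT3, both lower. Of the 40 genes, 30 had a fold change below 0 (51.5% of all genes) and the median was −0.22, against −0.01 for all genes. In all, 5 genes were lower in every clone than in every untreated library, where 8.51% of all genes were, and 0 were higher, where 7.96% of all genes were.

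These 5 were DDIT3, ASNS, ATF5, SLC6A9 and WARS1. DDIT3 had 3.51, 7.27 and 5.12 CPM in the clones and 15.5, 16.2 and 10.1 CPM in untreated replicates 1 to 3 (log2 fold change −1.39 ± 0.33, edgeR adjusted p = 0.345). ASNS had 189, 232 and 195 CPM in the clones and 322, 330 and 268 CPM untreated (−0.58 ± 0.14, adjusted p = 0.345). The 2 genes with the smallest p of the list did not pass the adjustment. ATF5 had 32.7, 82.3 and 87.9 CPM in the clones and 114, 108 and 195 CPM untreated (−1.04 ± 0.42, adjusted p = 0.70). WARS1 had 90.3, 98.8 and 105 CPM in the clones and 122, 124 and 242 CPM untreated (−0.73 ± 0.28, adjusted p = 0.695). SLC6A9 had 0.236, 1.43 and 0.305 CPM in the clones and 2.97, 2.88 and 1.71 CPM untreated (−1.92 ± 0.71, adjusted p = 0.654). In all 5 genes the highest clone lay below the lowest untreated library. ATF4 itself was at 250, 291 and 332 CPM in the clones and 370, 372 and 306 CPM untreated (−0.26 ± 0.15, adjusted p = 0.821), with clone 3 above untreated replicate 3. In the roles without such a gene the smallest p belonged to CHAC1, which degrades glutathione (−1.72 ± 0.97, adjusted p = 0.821), and ALDH1L2, a mitochondrial folate dehydrogenase (−1.65 ± 0.72, adjusted p = 0.747).

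**Figure D3:**
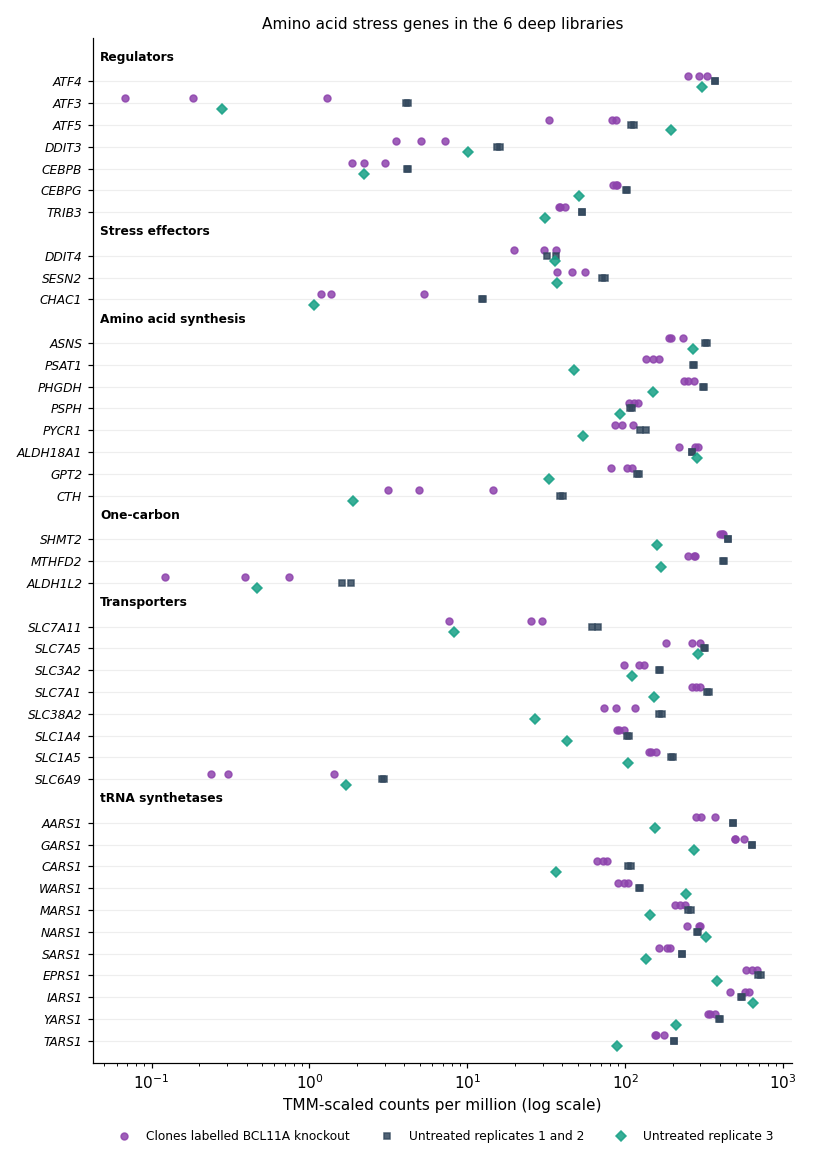
TMM-scaled CPM (log scale) of the 40 tested genes in each of the 6 deep libraries, by role, with the 3 clones labelled BCL11A knockout as circles, untreated replicates 1 and 2 as squares and untreated replicate 3 as diamonds. The squares almost coincide and lie to the right of the circles for 35 genes, while the diamond lies left of both squares for 34.

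The overlap lay mostly with untreated replicate 3. It was below both other untreated libraries for 34 of the 40 genes (85%; 47% of all genes tested), and by at least 1.5-fold for 29 (72.5%; 23.9% of all genes). That the list is lower in replicate 3 was known beforehand, so these counts describe that library and test nothing. The median log2 ratio of replicate 3 to the mean of replicates 1 and 2 was −0.94 over the 40 genes and 0.00 (−0.000323) over all genes. CTH was at 1.90 CPM in replicate 3 and 40.2 and 38.7 CPM in replicates 1 and 2. SLC7A11 was at 8.24 CPM in replicate 3 and 67.4 and 61.4 CPM in replicates 1 and 2. PSAT1 was at 47.4 CPM in replicate 3 and 269 and 272 CPM in replicates 1 and 2, and SLC38A2 at 26.7 CPM in replicate 3 and 171 and 164 CPM in replicates 1 and 2. Replicate 3 was below all 3 clones as well for 23 of the 40 genes, and 38.7% of all genes were placed so. In all, 5 genes were above replicates 1 and 2 in replicate 3, among them ATF5 at 195 CPM, WARS1 at 242 CPM, NARS1 at 323 CPM against 284 and 289 CPM, and IARS1 at 647 CPM against 553 and 540 CPM. The synthetases of asparagine, isoleucine and tryptophan thus parted from the other 8 in this library.

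Against untreated replicates 1 and 2 alone, 5 genes of the list fell and 0 rose: PSAT1, MTHFD2, CARS1, ASNS and SLC1A5. Over all 16607 genes tested 2.11% were called, 0.422% higher and 1.69% lower. PSAT1 had 136, 163 and 149 CPM in the clones and 269 and 272 CPM untreated (−0.85 ± 0.09, edgeR adjusted p = 0.014). MTHFD2 had 272, 277 and 251 CPM in the clones and 419 and 423 CPM untreated (−0.65 ± 0.07, adjusted p = 0.0144). ASNS had 189, 232 and 195 CPM in the clones and 322 and 330 CPM untreated (−0.66 ± 0.10, adjusted p = 0.0337). These 3 belong to serine, folate and asparagine metabolism, and each clone was below both untreated libraries. CARS1 had 66.4, 77.2 and 72.1 CPM in the clones and 109 and 104 CPM untreated (−0.56 ± 0.08, adjusted p = 0.0334). SLC1A5 had 141, 146 and 157 CPM in the clones and 196 and 201 CPM untreated (−0.42 ± 0.07, adjusted p = 0.0467). Replicate 3 was at 168 CPM for MTHFD2, 36.6 CPM for CARS1 and 104 CPM for SLC1A5, in each case below every clone, as it was for PSAT1. With replicate 3 included the log2 fold changes were −0.39 ± 0.58 for PSAT1, −0.34 ± 0.34 for MTHFD2, −0.21 ± 0.39 for CARS1 and −0.18 ± 0.25 for SLC1A5, none called. Of the other promoter matches shown above, AARS1 had 282, 372 and 301 CPM in the clones and 480 and 482 CPM untreated and did not pass (−0.59 ± 0.12, adjusted p = 0.0765).

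Most other genes of the list lay lower without a call. The fold change was below 0 for 38 of the 40, against 47.3% of all genes, and the median was −0.38, against 0.02 for all genes. Every clone was below both untreated libraries for 35 of the 40, against 20.5% of all genes, and 0 were placed above, against 19.7%. By role these were 7 of 7 regulators, 2 of 3 effectors, 6 of 8 synthesis enzymes, 3 of 3 folate enzymes, 8 of 8 transporters and 9 of 11 synthetases. The exceptions were DDIT4, PSPH, ALDH18A1, NARS1 and IARS1. These counts leave out replicate 3, which was known beforehand to be low for the list. With replicate 3 included, 5 of the 40 were lower in every clone, against 8.51% of all genes. The fold changes of the 35 uncalled genes reached −2.97 ± 0.94 for ATF3, −2.37 ± 0.64 for CTH and −2.23 ± 0.67 for CHAC1.

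Of the regulators, TRIB3 had the smallest p, with 38.1, 41.8 and 38.4 CPM in the clones and 53.1 and 53.6 CPM untreated (−0.43 ± 0.08, adjusted p = 0.0565). DDIT3 had a log2 fold change of −1.57 ± 0.29 (adjusted p = 0.0574) and ATF4 one of −0.35 ± 0.12 (adjusted p = 0.202). Of the effectors, SESN2 had 36.8, 55.8 and 45.9 CPM in the clones and 74.1 and 71.0 CPM untreated (−0.65 ± 0.17, adjusted p = 0.128). The cystine carrier SLC7A11 had 25.3, 29.6 and 7.62 CPM in the clones and 67.4 and 61.4 CPM untreated (−1.63 ± 0.55, adjusted p = 0.216). It shows how far the clones differ: SLC7A11 was lowest in clone 3, whereas clone 1 was the lowest clone for 23 of the 40 genes.

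**Figure D4:**
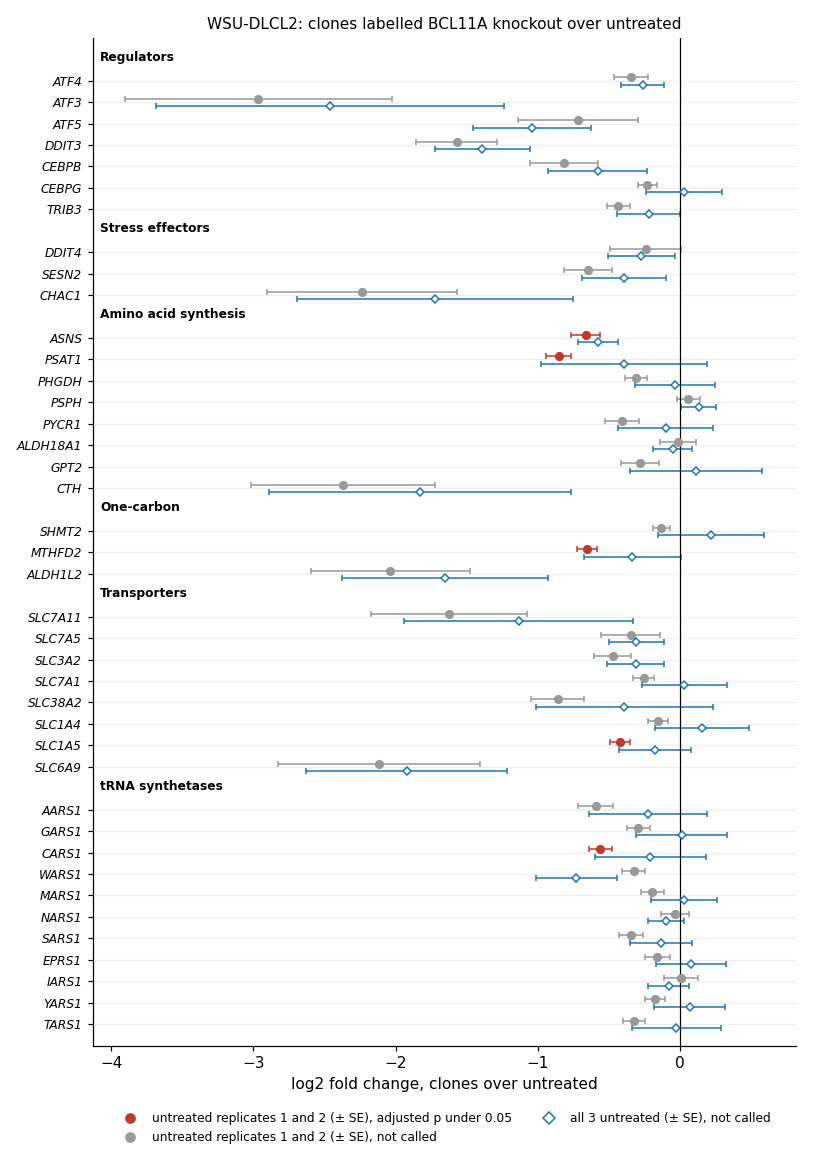
Log2 fold change (x axis, clones labelled BCL11A knockout over untreated WSU-DLCL2) with SE of the 40 tested genes, as circles against untreated replicates 1 and 2 (red where the edgeR adjusted p is under 0.05, grey otherwise) and as open diamonds against all 3 untreated libraries, where 0 were called. The red genes are ASNS, PSAT1, MTHFD2, SLC1A5 and CARS1, and their intervals widen across 0 with replicate 3 included, except that of ASNS.

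The clones differed widely for some genes of low counts and little for others. The highest clone was 19.1 times the lowest for ATF3, 6.1 times for ALDH1L2, 6.06 times for SLC6A9, 4.66 times for CTH and 4.49 times for CHAC1, and 1.04 times for SHMT2 and 1.06 times for CEBPG. Clone 2 had the highest value for ATF3, CHAC1, CTH and SLC6A9. The calls against replicates 1 and 2 rest on each untreated library: without either of them edgeR called 1 gene in all and 0 of the list. Without clone 1 it called 7 of the list and 825 genes in all, without clone 2 it called 23 of the list and 3020 in all, and without clone 3 it called 2 of the list and 92 in all, those of the list being lower; PSAT1 was called without clone 1 and without clone 2, but not without clone 3. As the title and the treatment entry of replicate 3 disagree, which untreated libraries are the proper baseline could not be settled from the files.

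The related lists stand beside 2.11% of all genes called. Against replicates 1 and 2, 0 of 12 other cytosolic synthetases, 0 of 17 mitochondrial synthetases and 0 of 18 further genes linked to ATF4 were called, and their medians were 0.06, −0.07 and −0.28. Of 16 genes of eIF2 signalling 1 fell: PPP1R15A (GADD34), the phosphatase subunit that restores eIF2 after stress, had 16.6, 27.4 and 19.2 CPM in the clones and 92.6 and 92.8 CPM untreated (−2.13 ± 0.21, adjusted p = 0.0143). It stood at 33.3 CPM in replicate 3, and against all 3 untreated libraries was at −1.79 ± 0.42 (adjusted p = 0.343). Of 15 other folate and serine genes 1 fell, GLUL, named after its values were seen, at no more than 0.14 CPM in the clones, 1.21 and 1.19 CPM in untreated replicates 1 and 2 and 0.139 CPM in replicate 3; with all 3 untreated libraries it was too low to test.

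Some of these values may include reads of other genes. Of the 42 genes, 18 have another annotated gene over an exon, 17 of them one on the opposite strand, and 11 have a named pseudogene: ATF4, ASNS, PSAT1, PSPH, MTHFD2, SLC7A5, AARS1, GARS1, CARS1, WARS1 and NARS1. The counting could split reads between such copies, so these 11 are the less certain ones, and 4 of the 5 genes called against replicates 1 and 2 are among them; SLC1A5 is not.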

How the data were processed

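Total RNA of 15 libraries in 5 groups of 3 was sequenced, and the authors' deposited values are read counts by gene in 15 files; the labels list 17 sample records, as the 3 runs of untreated WSU-DLCL2 replicate 3 share 1 count file. STAR 2.5.3a, RSEM and build GRCh37 (hg19) are named in the submitters' processing notes, whereas the deposited counts carry htseq, another counting program, in their names. Which program made the counts is thus not settled. The annotation, kit and strand are stated in no source used here. The whole-number counts were used raw, without the 5 summary lines of each file, which held 27.3% to 70.2% of reads. Symbols were matched by Ensembl identifier (52526 of 63677 genes).

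Groups were taken from titles. Comparisons used edgeR 4.0.16 in R 4.3.3 (TMM, filterByExpr, robust quasi-likelihood fits of only the groups compared, two-sided tests) with Benjamini-Hochberg adjustment over all genes tested and a threshold of 0.05; each SE was derived from the log2 fold change and its F statistic. The script was tested on simulated data. Alternatives were RLE and unscaled library sizes, no filter, DESeq2 1.42.0, limma-voom (limma 3.58.1), a replicate block and leaving out each library. Named in full were ATF4, up to 3 called genes per role and direction by fold change, and the smallest p in a role with no call. Members and lists were chosen with earlier results of these data known. Replicate numbers were not treated as pairs. Counts are of reads, so the limits given for 0 counts, set at 3 counts, cover counting error only. RefSeq promoters are on GRCh38.p14 and were used only for sequence.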

Additional observations from a re-analysis of the deposited data

How the results depend on the processing

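In Karpas-422 the same 25 genes were called in the same direction under RLE factors, no filter, DESeq2, limma-voom, the replicate block and each library left out; without untreated replicate 1, DDIT3 was also called higher (0.94). With library sizes alone 12 genes of the list were called higher, and SHMT2 (0.0603), SLC7A11 (0.35), SLC38A2 (0.10) and TARS1 (0.24) turned above 0. With libraries left out, SESN2 ran over −0.0204 to 0.107 and SLC7A11 over −0.104 to 0.00843. Genes of at least 10 CPM had a median of −0.90.

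For the clones against all 3 untreated libraries, genes called over all were 20 without a filter, 315 with DESeq2, 2 with limma-voom and 0 to 351 with libraries left out. Genes of the list called lower were 2 with DESeq2 and 0 to 5 with libraries left out, and CARS1 then ran over −0.561 to 0.0259.

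Against untreated replicates 1 and 2, genes called over all were 835 without a filter, 1153 with DESeq2, 89 with the replicate block and 1 to 3020 with libraries left out. Genes of the list called lower were 10 without a filter, 22 with DESeq2, 2 with the replicate block and 0 to 23 with libraries left out. IARS1 turned to −0.00286 with limma-voom and −0.0775 with the replicate block, and ran over −0.0775 to 0.114 with libraries left out; ALDH18A1 ran over −0.0900 to 0.0999 and NARS1 over −0.0892 to 0.0450. The cause of these shifts was not tested.

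The replicate numbers share no named culture: same-numbered libraries deviated from their group means with r of 0.02, 0.05 and −0.04 in Karpas-422 and 0.10, 0.05 and 0.25 in WSU-DLCL2, so the replicate block was kept as an alternative; it called 8250 genes in Karpas-422. In Karpas-422, ATF4 rests on 14 to 95 counts per library, and 8 genes of the list were too low to test.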
